A study of Homo sapiens with 9 samples.

Results

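The genes described here are 34 endothelial and vessel genes, chosen by name as genes that mark or build blood and lymphatic vessels. The rule uses names alone, but the genes were picked with earlier results of these data known. They were read in tumours grown in nude mice from A375, a human melanoma cell line that carries a BRAF mutation, by RNA sequencing of 9 libraries. All groups carried a doxycycline (Dox) inducible construct in A375 cells. The 3 groups were RNF4 without Dox, RNF4 with Dox, and the catalytically inactive RING mutant of RNF4 (C159A) with Dox. RNF4 is a ubiquitin ligase that acts on SUMO-modified proteins, and its RING domain carries the ligase activity. The 2 groups that received Dox drank it with their water from day 3 after injection, and tumours were collected after 30 days. Each library pooled 2 tumours chosen as similar, so the 3 libraries of a group stand for 6 tumours by the series text. The sample titles of each group carry the replicate numbers 1, 2 and again 1, so p-values measure the spread between these libraries, and whether all 3 are separate tumour pools is not settled by the titles. The series text names tumours with GFP as its control, whereas the sample titles give RNF4 without Dox, and the titles were followed. Whether a line was 1 clone, which promoter drove the constructs, and the age of the mice are not given in the sources used here. Of the 34 genes, 33 had a row among the 57820 gene identifiers of the deposited tables, and PECAM1 was not analysed here.

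Endothelial cells line blood and lymphatic vessels and hold together through junction proteins such as VE-cadherin. Vascular endothelial growth factors (VEGFs) act on them through the receptors FLT1, KDR and FLT4, and angiopoietins act through TEK with TIE1 as its partner. Apelin, Notch and sphingosine 1-phosphate signals guide sprouting and stabilise the wall, mural cells wrap it from outside, and the factors ERG, TAL1, LMO2 and those of the SOXF family keep endothelial identity. In a xenograft the vessels are largely built by the host. A nude mouse lacks a thymus and most T cells but keeps vessels, fibroblasts and innate immune cells. The reads were aligned to the human genome only, per the submitters' processing notes. A count on a vessel gene can therefore come from the tumour cells or from mouse RNA placed on the human gene, and this was not tested. In a bulk library, fewer cells of a type and less RNA per cell cannot be told apart.

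Libraries are named by their column. RNF4 without Dox has T1, T4 and T12, RNF4 with Dox has T2, T5 and T13, and the RING mutant group has T3, T6 and T14. Column numbers were divided into 3 runs, T1-T3, T4-T6 and T12-T14. The numbers themselves have a gap only before T12. The division between T3 and T4 was set where a group comes round again, so each run holds 1 library of every group by that rule. What a run stands for is not stated. Levels are CPM, that is, counts scaled by sequencing depth, on TMM-scaled library sizes. Total counts ranged from 16416426 to 28934692 per library. RNF4 stood at 33.4 to 52.0 CPM without Dox and at 380 to 454 CPM with RNF4 and Dox. In the libraries labelled RING mutant it stood at 47.0 CPM in T3, 559 CPM in T6 and 63.5 CPM in T14, so T3 and T14 go against their label. For vessel genes, counts at an unadjusted p and most named differences from the RING mutant are also given without them. Those of the other pathway lists are given only with them. T1 and T2 stand apart by their share of counts on genes of ribosomal proteins, 25.94% and 16.02% against 6.49% to 9.70% in the other 7 libraries. They also had the lowest TMM factors, 0.7262 and 0.8911 against 1.018 to 1.084. Separations of groups that turn on T1 or T2 therefore also turn on this scaling.

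Promoter sequences of the vessel genes were read for short letter patterns. The window of 250 bases before the RefSeq start (GRCh38.p14) was present for 19 of the 34 genes. It was searched on both strands for 6 letter patterns of the ETS and SOX families of transcription factors, which include ERG and SOX17. The patterns were picked after the expression values were seen and overlap each other. AGGAAG, a form of the ETS site, occurred in 13 of 19 windows (68.4%), against 28.7% of the 27305 genes in the same table. AGGAAGT occurred in 26.3% of the vessel genes against 7.10% of all, AAGGAA in 21.1% against 20.3%, and CCGGAA in 5.26% against 14.8%. The short core GGAA occurred in 94.7% against 92.8%, and ACAAT, a core read by SOX factors, in 26.3% against 25.2%. These shares are descriptions of letters and carry no test. The following 6 windows are shown because they belong to genes that the results turn on and hold no exon of GENCODE 29, with AGGAAG or its reverse complement CTTCCT in capitals. They read from 5′ to 3′ on the strand of the gene.
TIE1, chr1:43300732-43300981, plus strand: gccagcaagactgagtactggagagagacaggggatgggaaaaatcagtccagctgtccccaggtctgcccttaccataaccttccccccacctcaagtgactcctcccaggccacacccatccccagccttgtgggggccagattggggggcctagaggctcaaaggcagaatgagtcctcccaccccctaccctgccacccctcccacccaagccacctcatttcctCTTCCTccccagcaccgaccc
CSPG4, chr15:75712849-75713098, minus strand: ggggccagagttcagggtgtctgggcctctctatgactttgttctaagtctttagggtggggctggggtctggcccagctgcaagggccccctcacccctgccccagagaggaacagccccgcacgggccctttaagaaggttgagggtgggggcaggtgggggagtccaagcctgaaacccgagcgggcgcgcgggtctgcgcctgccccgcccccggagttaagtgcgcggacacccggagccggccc
KDR, chr4:55125596-55125845, minus strand: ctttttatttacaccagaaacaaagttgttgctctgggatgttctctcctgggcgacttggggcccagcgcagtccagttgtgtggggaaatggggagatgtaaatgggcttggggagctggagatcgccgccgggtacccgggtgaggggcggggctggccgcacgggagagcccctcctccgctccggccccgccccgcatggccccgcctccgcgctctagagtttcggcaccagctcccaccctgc
APLN, chrX:129654957-129655206, minus strand: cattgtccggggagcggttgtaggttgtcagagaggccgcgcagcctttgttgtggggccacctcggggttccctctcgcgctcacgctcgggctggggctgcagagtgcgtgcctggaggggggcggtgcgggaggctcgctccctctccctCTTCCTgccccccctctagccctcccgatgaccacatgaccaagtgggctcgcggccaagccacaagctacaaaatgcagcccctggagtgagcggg
EGFL7, chr9:136658606-136658855, plus strand: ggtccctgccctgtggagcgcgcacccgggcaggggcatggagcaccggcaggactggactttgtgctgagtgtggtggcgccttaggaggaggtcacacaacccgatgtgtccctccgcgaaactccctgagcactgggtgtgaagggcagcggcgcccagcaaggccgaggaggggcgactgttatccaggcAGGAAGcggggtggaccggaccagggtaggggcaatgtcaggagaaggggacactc
MMRN1, chr4:89879261-89879510, plus strand: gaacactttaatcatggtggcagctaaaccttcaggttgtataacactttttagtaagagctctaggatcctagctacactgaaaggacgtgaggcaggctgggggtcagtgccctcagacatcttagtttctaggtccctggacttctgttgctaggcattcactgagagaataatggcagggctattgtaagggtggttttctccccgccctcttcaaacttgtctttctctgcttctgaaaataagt
TIE1, APLN and EGFL7 hold the pattern once, and CSPG4, KDR and MMRN1 do not hold it in this window.

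Per kilobase of exon, 5 of the 33 genes stood above the rest. These were CSPG4 at a mean of 33.1 CPM per kilobase over the 9 libraries, ENG at 25.8, TIE1 at 16.4, ROBO4 at 4.98 and S1PR1 at 4.66, followed by RAMP2 at 2.56. Of the tested genes with a length, 92.6% lay below CSPG4, 89.9% below ENG, 83.9% below TIE1, 58.2% below ROBO4 and 56.6% below S1PR1. The other 25 tested genes had between 2.93% and 44.4% of genes below them. TIE1 and ROBO4 belong to the defining endothelial markers as well. The other tested markers of that list ranged from EGFL7 at 2.43 CPM per kilobase to SOX17 at 0.185. Between them, CDH5 stood at 1.01, KDR at 0.732 and VWF at 0.281. EMCN, PLVAP and SOX7 did not pass the filter on low counts. EMCN, which codes for the endothelial sialomucin endomucin, had 6 counts in all 9 libraries together and 0 in T3, T4, T6 and T14. A count of 0 allows up to 3 counts, which is 0.178 CPM in T3, 0.0963 in T4, 0.131 in T6 and 0.171 in T14, for counting error only. PLVAP, the diaphragm protein of fenestrated endothelium, had 0 to 10 counts per library, and SOX7, a SOXF factor, had 2 to 20.

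**Figure D1:**
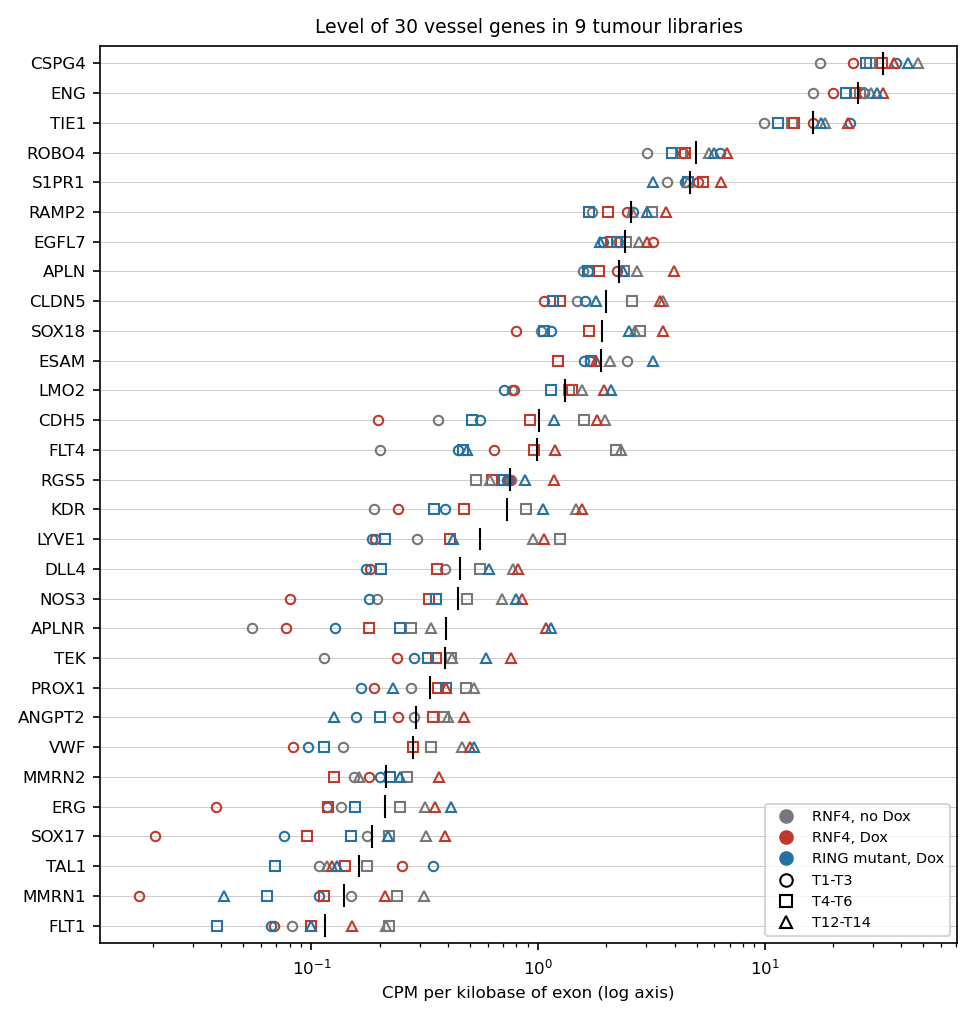
Level of the 30 tested vessel genes in CPM per kilobase of exon on a log axis, 1 point per library, coloured by group and shaped by run of column numbers, with a bar at the mean. CSPG4, ENG, TIE1, ROBO4 and S1PR1 lie at the top with a narrow spread, and APLNR, SOX17 and MMRN1 are among those whose points spread most widely.

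In the values that follow, each group's 3 libraries are given in the order of the runs, so the first value is from T1-T3, the second from T4-T6 and the third from T12-T14. CSPG4, the proteoglycan NG2, marks pericytes and is also a surface antigen of melanoma cells. It stood at 146, 242 and 394 CPM without Dox, 202, 273 and 308 CPM in RNF4 with Dox, and 314, 231 and 357 CPM with the RING mutant. ENG, endoglin, is a co-receptor for TGF-beta family ligands on endothelium and stood at 64.6, 103 and 116 CPM without Dox, 78.6, 98.8 and 131 in RNF4 with Dox, and 108, 90.1 and 123 with the RING mutant. T1 was lowest for both genes, and all 3 group ranges overlapped. TIE1, the angiopoietin co-receptor, stood at 66.4, 88.5 and 123 CPM without Dox, 110, 90.5 and 155 in RNF4 with Dox, and 159, 76.7 and 119 with the RING mutant. ROBO4, a guidance receptor that stabilises vessel walls, stood at 21.3, 30.2 and 39.7 CPM, 30.7, 31.3 and 47.8 CPM and 44.8, 27.5 and 41.9 CPM in the same order of groups. T3 and T13 were the 2 highest libraries for TIE1 and ROBO4, and T1 the lowest. S1PR1, the sphingosine 1-phosphate receptor of endothelium, stood at 19.4, 23.8 and 23.9 CPM without Dox, 26.4, 27.9 and 33.4 in RNF4 with Dox, and 23.2, 24 and 16.8 with the RING mutant. All 3 libraries of RNF4 with Dox lay above all the others for S1PR1. Across libraries, the highest value of these 5 genes was 1.99 to 2.69 times the lowest. RGS5, the other mural cell gene, regulates G protein signals in pericytes and stood at 5.2, 3.63 and 4.17 CPM, 5.07, 4.26 and 7.98 CPM and 4.98, 4.81 and 5.97 CPM in the 3 groups, with T13 highest.

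Of the junction, adhesion and secreted proteins, CDH5, which codes for VE-cadherin (chromosome 16, 66366622 to 66404786, plus strand, GENCODE 29 on GRCh38, as are all places given here), stood at 2.19, 9.69 and 12.1 CPM without Dox. It stood at 1.2, 5.6 and 11 CPM in RNF4 with Dox and 3.38, 3.11 and 7.1 CPM with the RING mutant, a 10.1-fold range over libraries. In every group the library of T12-T14 was highest for CDH5, and the groups overlapped. CLDN5, the claudin of endothelial tight junctions, stood at 5.06, 8.89 and 12.1 CPM, 3.64, 4.3 and 11.8 CPM and 5.51, 3.98 and 6.19 CPM. ESAM, an endothelial adhesion molecule, stood at 7.25, 3.59 and 6.05 CPM, 4.98, 3.58 and 5.29 CPM and 4.68, 4.99 and 9.38 CPM. CLDN5 was highest in T12 and T13, as CDH5 was, whereas ESAM was highest in T14 and T1.

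VWF, von Willebrand factor, which binds platelets, stood at 1.44, 3.5 and 4.79 CPM without Dox, 0.861, 2.91 and 5.21 in RNF4 with Dox, and 1.01, 1.18 and 5.4 with the RING mutant. NOS3, the endothelial nitric oxide synthase, stood at 1.16, 2.89 and 4.13 CPM, 0.478, 1.97 and 5.05 CPM and 1.07, 2.1 and 4.77 CPM. Both genes were lowest in T2 and had their 3 highest values in T12, T13 and T14. EGFL7, a secreted matrix protein of sprouting endothelium, stood at 5.75, 6.26 and 7.15 CPM, 8.18, 5.33 and 7.69 CPM and 4.92, 5.69 and 4.77 CPM, a 1.71-fold range over libraries. All RING mutant libraries lay below all libraries without Dox for EGFL7. MMRN2, a matrix multimerin of vessels, stood at 0.821, 1.41 and 0.864 CPM, 0.957, 0.672 and 1.94 CPM and 1.07, 1.18 and 1.31 CPM, with no order among groups or runs. MMRN1, the multimerin of platelets and lymphatic endothelium, stood at 0.821, 1.32 and 1.73 CPM, 0.0957, 0.627 and 1.16 CPM and 0.593, 0.35 and 0.227 CPM, so each RING mutant library was below each library without Dox.

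Among the receptors, KDR, the main VEGF receptor of blood vessels (chromosome 4, 55078259 to 55125595, minus strand), stood at 1.23, 5.78 and 9.67 CPM without Dox, 1.58, 3.09 and 10.2 in RNF4 with Dox, and 2.55, 2.27 and 6.88 with the RING mutant. FLT1, which binds VEGF and limits its action (chromosome 13, 28300344 to 28495145, minus strand), stood at 1.03, 2.76 and 2.67 CPM, 0.861, 1.25 and 1.9 CPM and 0.83, 0.481 and 1.25 CPM. FLT4, the VEGF receptor of lymphatic endothelium (chromosome 5, 180601506 to 180649624, minus strand), stood at 1.78, 19.5 and 20.6 CPM, 5.64, 8.47 and 10.5 CPM and 3.91, 4.11 and 4.32 CPM. The 3 RING mutant values of FLT4 lay close together, below every library of RNF4 with Dox, while without Dox T1 lay far below T4 and T12. TEK, the angiopoietin receptor, stood at 0.547, 1.99 and 2.0 CPM, 1.15, 1.7 and 3.64 CPM and 1.36, 1.57 and 2.84 CPM. LYVE1, a hyaluronan receptor of lymphatic endothelium, stood at 1.03, 4.4 and 3.34 CPM, 0.67, 1.43 and 3.72 CPM and 0.652, 0.743 and 1.48 CPM. TEK was lowest in T1, T2 and T3, and LYVE1 was low there and in T6. APLNR, the apelin receptor, stood at 0.205, 1.03 and 1.26 CPM, 0.287, 0.672 and 4.05 CPM and 0.474, 0.918 and 4.26 CPM, a 20.8-fold range, with T13 and T14 far above the rest. RAMP2, which partners the adrenomedullin receptor, stood at 1.98, 3.66 and 2.99 CPM, 2.82, 2.33 and 4.22 CPM and 3.02, 1.92 and 3.47 CPM and overlapped among all groups and runs.

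Of the 3 ligands, ANGPT2, the angiopoietin that destabilises vessels during sprouting (chromosome 8, 6499651 to 6563409, minus strand), stood at 1.92, 2.6 and 2.71 CPM without Dox, 1.63, 2.33 and 3.18 in RNF4 with Dox, and 1.07, 1.36 and 0.852 with the RING mutant. Each RING mutant library was below each library of the other 2 groups. APLN, apelin, stood at 5.06, 7.7 and 8.76 CPM, 7.18, 5.96 and 12.8 CPM and 5.33, 5.34 and 7.61 CPM. DLL4, the Notch ligand of tip cells, stood at 1.85, 2.63 and 3.69 CPM, 0.861, 1.7 and 3.89 CPM and 0.83, 0.962 and 2.9 CPM. APLN and DLL4 were highest in T13.

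Of the transcription factors, ERG stood at 1.03, 1.86 and 2.4 CPM without Dox, 0.287, 0.896 and 2.65 in RNF4 with Dox, and 0.889, 1.18 and 3.13 with the RING mutant. SOX18, a SOXF factor of endothelium, stood at 1.92, 5.23 and 4.99 CPM, 1.48, 3.14 and 6.62 CPM and 2.13, 1.97 and 4.72 CPM. LMO2, an adaptor that works with TAL1, stood at 2.39, 4.27 and 4.87 CPM, 2.44, 4.39 and 6.08 CPM and 2.19, 3.54 and 6.53 CPM. In each group, all 3 factors were higher in the library of T12-T14 than in that of T1-T3. PROX1, the master factor of lymphatic identity, stood at 2.46, 4.3 and 4.64 CPM, 1.67, 3.23 and 3.52 CPM and 1.48, 3.5 and 2.05 CPM. SOX17, which favours arterial endothelium, and TAL1 had means of 0.432 and 0.923 CPM. TAL1 was highest in T3 and lowest in T6, both of the RING mutant group.

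For the question of what active RNF4 changes, RNF4 with Dox was compared with RNF4 without Dox. No vessel gene passed: 0 of 30 tested had an adjusted p under 0.05 by the quasi-likelihood test of edgeR, adjusted by Benjamini-Hochberg over 18618 genes, where the background was 0%. At an unadjusted p under 0.05, 0 of 30 were higher and 0 lower, against 0.134% and 0.462% of all genes, and DESeq2 also called 0 of 30. The median log2 difference of the 30 genes was -0.07, against -0.03 over all genes tested, with 14 above 0 and 16 below.

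The 4 vessel genes with the smallest p in that comparison were S1PR1, MMRN1, FLT1 and RGS5. S1PR1 (chromosome 1, 101236865 to 101243713, plus strand) differed by 0.38 ± 0.20 (log2 ± SE, n = 3 a group) with a p of 0.0914 and an adjusted p of 1.0 in edgeR. It was the single vessel gene whose groups did not overlap, with RNF4 and Dox higher, as 0.875% of all genes did. Before TMM scaling, T2 held 552 counts of S1PR1 on a total of 23492933, and T4 held 743 on 28934692. This separation therefore rests on the scaling. MMRN1 (chromosome 4, 89879532 to 89954629, plus strand) differed by -1.03 ± 0.70, FLT1 by -0.69 ± 0.51 and RGS5 (chromosome 1, 163111121 to 163321791, minus strand) by 0.42 ± 0.31, with overlapping groups. CSPG4 (chromosome 15, 75674322 to 75712848, minus strand) differed by 0.00 ± 0.36. The SE of a log2 difference had a median of 0.50 over the 30 genes, so differences of this size were not detectable with these libraries. The median moved to -0.51 without T13 and to 0.18 without T2 or without T12, so single libraries turn its direction. The count of vessel genes lower at an unadjusted p under 0.05 was 3 of 30 without T13, where 0.398% of all genes passed in either direction, and 1 of 30 without T1, where 2.06% did.

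**Figure D2:**
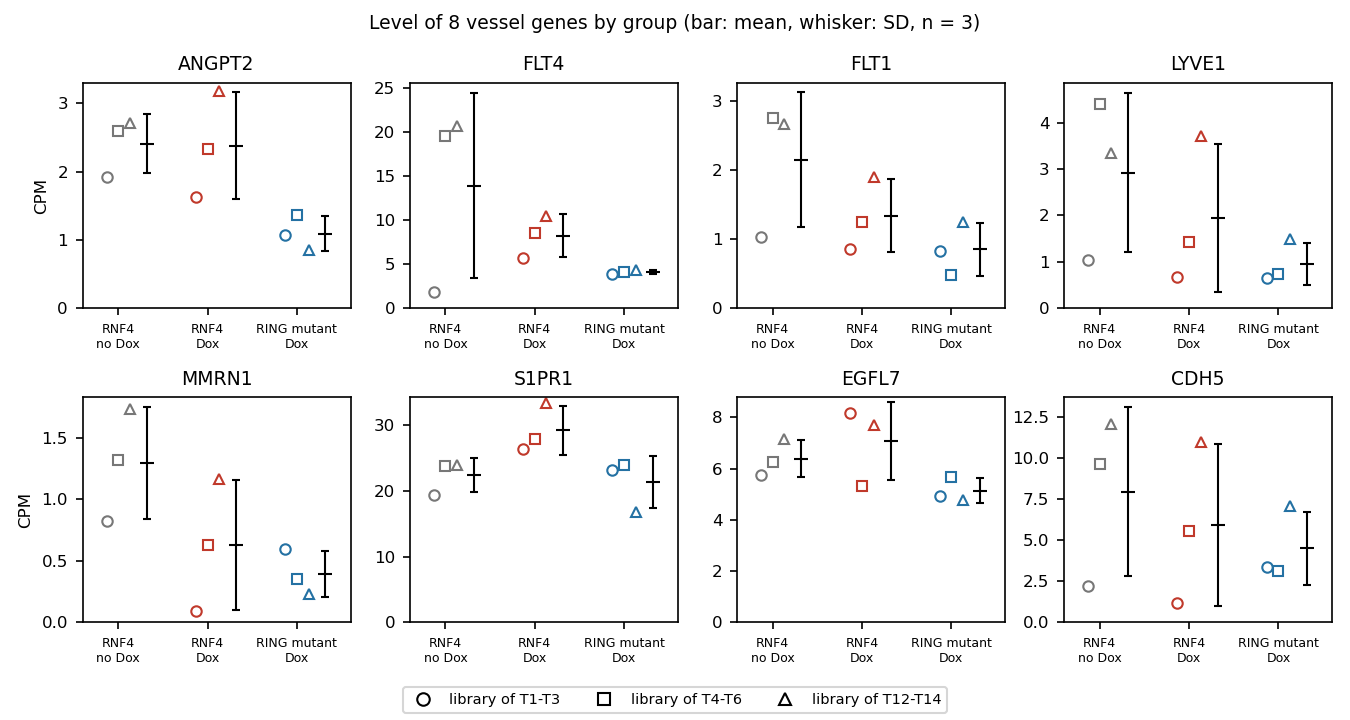
CPM of 8 vessel genes in the 3 groups, 1 point per library shaped by run of column numbers, with the group mean and SD (n = 3) at the right of each group. ANGPT2 in the RING mutant group lies below both other groups, S1PR1 is highest with RNF4 and Dox, and CDH5 is highest in the T12-T14 library of each group.

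Active RNF4 was next compared with the RING mutant, both with Dox. Again 0 of 30 vessel genes had an adjusted p under 0.05 in edgeR (background 0%) and 0 of 30 in DESeq2. At an unadjusted p under 0.05, ANGPT2 alone was higher with active RNF4, 1 of 30 against 1% of all genes. Its mean was 2.38 ± 0.78 CPM (SD, n = 3) with RNF4 and 1.09 ± 0.25 CPM with the RING mutant. The log2 difference was 1.12 ± 0.38 (SE), with a p of 0.015 and an adjusted p of 1.0 in edgeR. Groups did not overlap for ANGPT2, FLT4 and S1PR1, all higher with active RNF4, against 2.71% of all genes. Before TMM scaling, T2 held 34 counts of ANGPT2 and 552 of S1PR1 on a total of 23492933. T6 held 31 and 549 on 21271402, so the separations of these 2 genes rest on the scaling. FLT4 differed by 1.0 ± 0.67, S1PR1 by 0.45 ± 0.21 and EGFL7 (chromosome 9, 136658856 to 136672678, plus strand) by 0.46 ± 0.26, while CSPG4 differed by -0.20 ± 0.36. The median over the 30 genes was 0.23, against 0.03 over all genes, and 22 of 30 lay above 0. Without T13 the median was -0.27 and 9 of 30 lay above 0. Without T3 and T14, which leaves T6 as the single RING mutant library, 32 vessel genes were tested, the median was 0.69 and 0 of 32 had an unadjusted p under 0.05, where 0.732% of all genes did. The lone library is then assumed to vary like the other groups. ANGPT2 differed by 0.81 ± 0.58 and S1PR1 by 0.28 ± 0.32 in that fit, with p of 0.205 and 0.404, and FLT4 by 0.99 ± 1.12 with a p of 0.4. The count was also 0 of 30 without T13 or without T14, where 2.02% and 2.17% of all genes passed in either direction, and 4 of 30 without T1 and T2, where 2% did.

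The RING mutant with Dox was compared with RNF4 without Dox, 2 groups that share no raised active RNF4. An adjusted p under 0.05 was reached by 0 of 30 vessel genes in edgeR (background 0%) and by 0 of 30 in DESeq2. At an unadjusted p under 0.05, 5 of 30 were lower with the RING mutant, against 1.38% of all genes, and these were ANGPT2, FLT1, FLT4, LYVE1 and MMRN1. FLT4, LYVE1 and MMRN1 are genes of lymphatic endothelium, a theme picked after the values were seen. ANGPT2 differed by -1.14 ± 0.38 (log2 ± SE), FLT4 by -1.77 ± 0.68, FLT1 by -1.35 ± 0.53 and MMRN1 by -1.73 ± 0.73, each with an adjusted p of 1.0 in edgeR. LYVE1 differed by -1.62 ± 0.71 and is named after its value was seen. PROX1, the lymphatic factor, differed by -0.70 ± 0.44 with a p of 0.147. CSPG4 differed by 0.21 ± 0.36.

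Levels for the same genes show where these differences lie. FLT4 had a mean of 4.11 ± 0.20 CPM (SD, n = 3) with the RING mutant and 13.9 ± 10.5 CPM without Dox. T4 and T12 were the high libraries of FLT4, FLT1 and LYVE1, and T1 stood below the highest RING mutant library for these 3 genes. Groups did not overlap for ANGPT2, EGFL7 and MMRN1, which were lower with the RING mutant, against 2.58% of all genes. Before TMM scaling, T1 held 28, 84 and 12 counts of these genes on a total of 20159280. T6 held 31 counts of ANGPT2 and 130 of EGFL7 on 21271402, and T3 held 10 of MMRN1 on 16594911. These separations therefore rest on the scaling of T1.

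The count of 5 turned on some single libraries and not on others. In either direction, 1.75% of all genes had an unadjusted p under 0.05 with all 9 libraries. The count stayed at 5 of 30 without T1, T2 or T13, where 2.61%, 1.82% and 1.85% of all genes passed. RLE scaling and DESeq2 also gave 5 of 30, where 1.75% and 2.06% did. Without T14 it was 4 of 30, where 2.03% did. With T4 or T12 left out the count was 1 of 30, where 1.96% and 2.26% of all genes passed. With T3 or T6 left out it was 2 of 30, where 1.36% and 1.98% did, and with T5 left out 3 of 30, where 1.82% did. Without T3 and T14 it was 1 of 32, FLT1 at a log2 difference of -2.16 ± 0.85, where 0.606% of all genes passed. In that fit ANGPT2 differed by -0.83 ± 0.58 and FLT4 by -1.76 ± 1.17, MMRN1 by -1.87 and LYVE1 by -1.98 ± 1.17, with unadjusted p of 0.195, 0.17, 0.158 and 0.131. Without T1 and T2 it was 8 of 30, where 5.18% of all genes passed, and FLT4 then passed the adjusted threshold at a log2 difference of -2.27 ± 0.21 with an adjusted p of 0.039 in edgeR. With a term for the run of column numbers it was 6 of 30, where 2.16% did, and FLT4 differed by -1.42 ± 0.61. The RING mutant libraries carry another construct and 2 of the 3 show no raised RNF4 transcript, so line, construct and Dox cannot be told apart here.

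**Figure D3:**
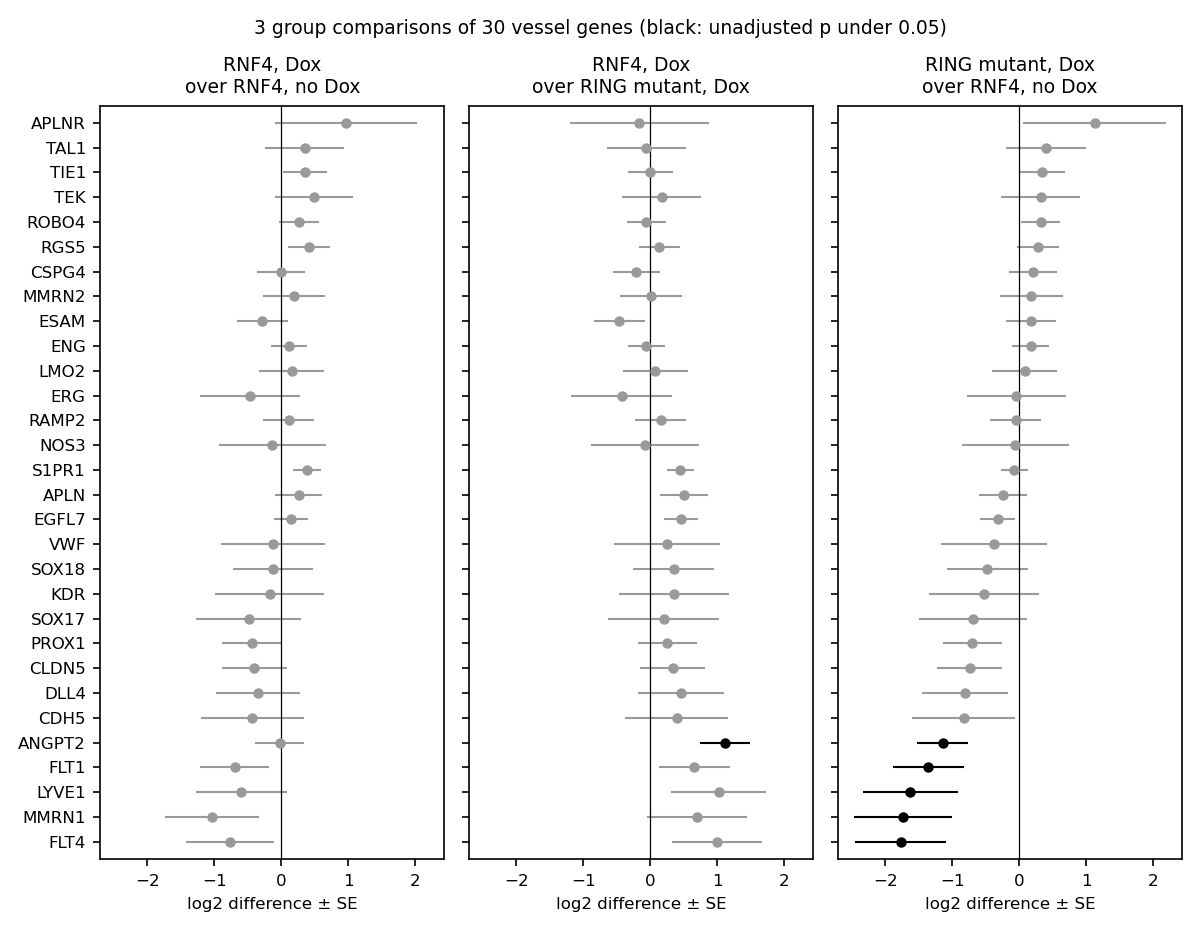
Log2 difference with its SE for the 30 tested vessel genes in the 3 group comparisons, black where the unadjusted p was under 0.05. ANGPT2 is black in the middle and right panels, FLT4, MMRN1, LYVE1 and FLT1 in the right panel, and no gene in the left panel.

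The means of 29 of 30 vessel genes were higher in T12-T14 than in T1-T3, a count whose share over all genes was not taken. Between T12-T14 and T1-T3 the groups of libraries did not overlap for 16 of 30 vessel genes, all higher in T12-T14, against 18.7% of all genes. They include CDH5, KDR, VWF, NOS3, ERG, SOX18, TEK, DLL4, APLNR and LMO2, whose values are given above. The fold of T12-T14 over T1-T3 had a median of 2.09 over the 30 genes, against 1.04 over all genes. TAL1, at 0.527, was the single vessel gene lower in T12-T14. T12-T14 lay above T4-T6 without overlap for 13 of 30, against 15% of all genes, with a median fold of 1.44, in a comparison that holds neither T1 nor T2. T4-T6 lay above T1-T3 without overlap for 5 of 30, against 10.8%.

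The spread differed with level. APLNR (chromosome 11, 57233577 to 57237314, minus strand) had the widest run difference, with means of 0.322 CPM in T1-T3, 0.872 in T4-T6 and 3.19 in T12-T14. NOS3 (chromosome 7, 150990995 to 151014588, plus strand) had means of 0.903, 2.32 and 4.65 CPM in the same order of runs. VWF (chromosome 12, 5948874 to 6124770, minus strand) had means of 1.1, 2.53 and 5.13 CPM, and KDR of 1.79, 3.71 and 8.92 CPM. These 4 genes differed 4.66-fold to 9.91-fold between T12-T14 and T1-T3. CSPG4 had means of 221, 249 and 353 CPM, a 1.60-fold difference, and S1PR1 one of 1.07-fold. Among the 22 vessel genes with a mean from 1 to 15 CPM, the highest library was a median of 4.58 times the lowest, against 2.81 over the 6553 tested genes of that range. Among the 5 most abundant it was a median of 2.24 times, against 1.86 over the 8918 tested genes with a mean of 15 CPM and more. This division, at a mean of 15 CPM, was picked after the values were seen.

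In a model with group and run, 16 of 30 vessel genes had an unadjusted p under 0.05 for any difference among runs, against 30.5% of all genes. Earlier results of these data had shown libraries of a run to deviate together, so these p-values are not an independent test. The 4 smallest p values were 0.000602 for NOS3, 0.000729 for APLNR, 0.00146 for VWF and 0.00184 for KDR, and CSPG4 had 0.0619. None passed the adjusted threshold in edgeR, 0 of 30 against a background of 0%, and the smallest adjusted p was 0.0829 both for vessel genes and for all genes. DESeq2's likelihood ratio test called 11 of 30 vessel genes against 19.9% of all genes. Without T3 the count was 17 of 30 against 37.4%, without T6 it was 6 of 30 against 11.7%, and without T1 and T2 it was 2 of 30, TIE1 and KDR, against 3.05%. At an unadjusted p under 0.05 the count of 16 became 8 without T2, against 14.8% of all genes, and 8 without T13, against 20%. The number of calls among runs thus turned on the tool and on single libraries.

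**Figure D4:**
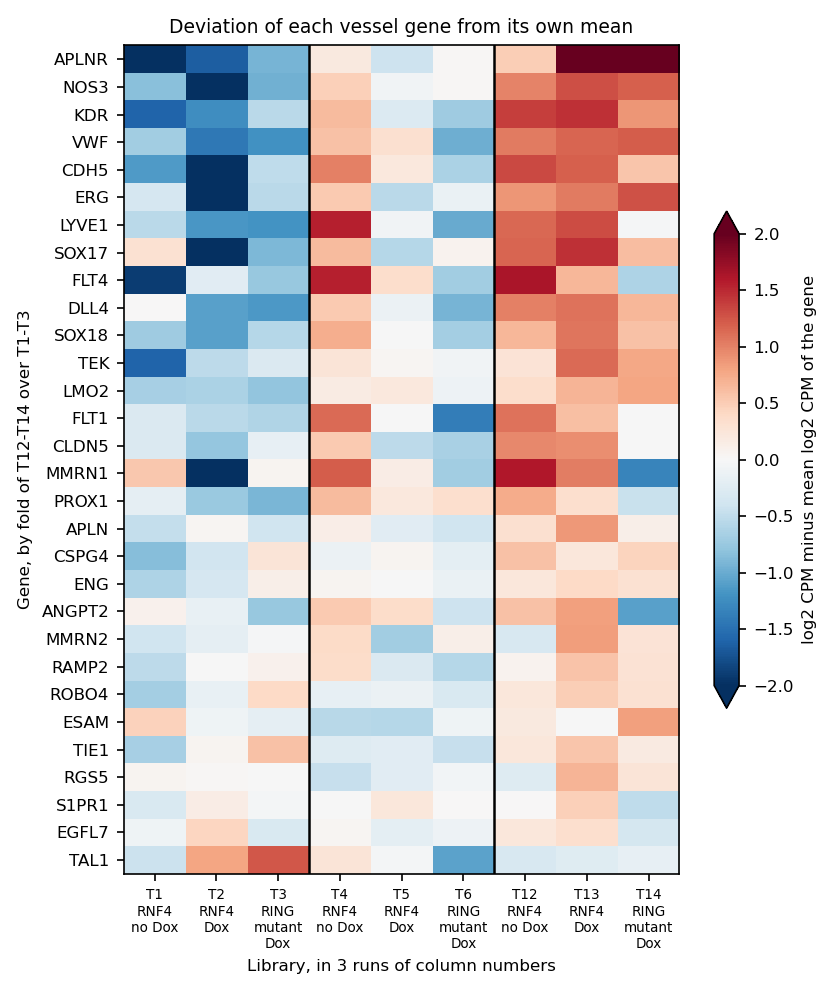
Log2 CPM of each tested vessel gene minus its own mean, with libraries in order of column number and runs divided by black lines, and genes ordered by the fold of T12-T14 over T1-T3. Red fills T12 to T14 and T4 for most genes, blue fills T1 to T3, and TAL1 at the bottom is highest in T3.

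Within the runs the libraries were not alike. T13 was the highest library for 14 of 30 vessel genes, T12 for 6 and T14 for 5, while T1 was lowest for 9 and T2 for 8. The same shares over all genes were not taken, so whether these counts are particular to vessel genes is not known. The summed level of the 25 less abundant genes was 55.1 CPM in T1, 55.5 in T2, 56.1 in T3, 110 in T4, 70.9 in T5, 58.0 in T6, 129 in T12, 136 in T13 and 98.6 in T14. T4 thus stood nearer to T12-T14 than to T5 and T6. The summed level of the 5 abundant genes ranged from 318 CPM in T1 to 697 CPM in T12, and T3, at 649 CPM, was among the high libraries there.

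Markers listed for other cell types moved over the libraries as well, and whether their counts come from host or tumour cells was not tested. All 12 fibroblast markers had a row, none at 0 in every library, and their summed level was 1080 to 2770 CPM without Dox, 1320 to 3910 in RNF4 with Dox, and 849 to 4570 with the RING mutant. T4, T12, T13 and T14 were the 4 highest libraries both for this sum, at 2360 to 4570 CPM, and for the 25 less abundant vessel genes. The collagens COL1A1, COL3A1 and COL1A2 carry most of the sum, at means of 916, 500 and 355 CPM. With each of the 12 markers weighted alike, the mean log2 deviation was -0.135 in T4, below 0.043 in T2, so T4 is not among the high libraries on that measure. The 16 skeletal muscle markers summed to 341 to 432 CPM without Dox, 456 to 667 in RNF4 with Dox, and 429 to 1350 with the RING mutant, with T14 and T13 highest. TPM2, at 289 CPM or more in each library, makes up most of that sum in every library but T14, while the muscle enzyme gene CKM ranged from 0.134 CPM in T5 to 101 CPM in T14. The 12 epidermal markers summed to 121 to 273 CPM, 120 to 608 CPM and 126 to 247 CPM in the 3 groups, with T13 highest. KRT10 alone gave 251 of the 273 CPM in T1. With each of the 8 tested epidermal markers weighted alike, T1 was the lowest library, at a mean log2 deviation of -1.794 against -1.631 in T5. Of 17 leukocyte and macrophage markers 16 had a row, and they summed to 138 to 192 CPM, 134 to 175 and 148 to 245 CPM. The platelet and erythroid markers summed to 7.61 to 45.5 CPM, 16.9 to 87.5 and 16.2 to 34.9 CPM, with T13 highest. The 8 adipocyte markers, of which ADIPOQ was at 0, summed to 4.36 to 5.81 CPM, 5.06 to 13.2 and 4.62 to 18.4 CPM, with T14 and T13 highest. The 12 melanoma and melanocyte markers, which include CSPG4 and MCAM, summed to 637 to 941 CPM, 652 to 802 and 749 to 907 CPM. The part of these cells in the differences between libraries was not tested.

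**Figure D5:**
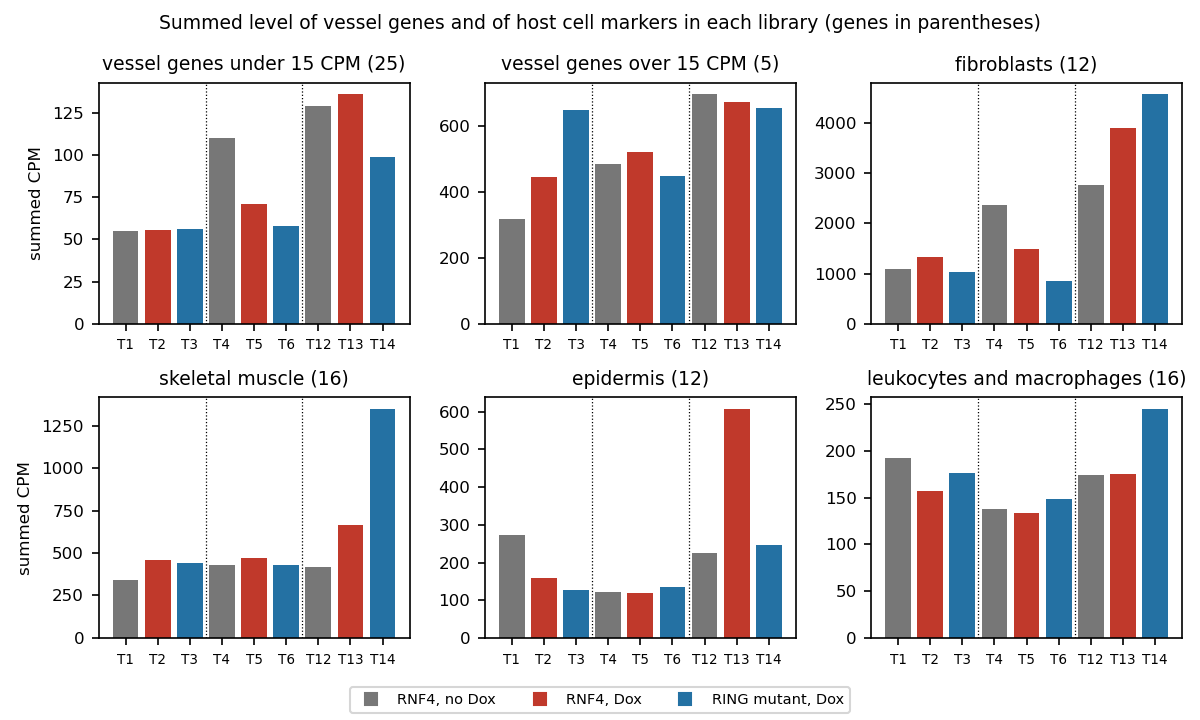
Summed CPM of the 25 vessel genes with a mean under 15 CPM, the 5 above it, and 4 lists of markers of other cell types, 1 bar per library coloured by group. Runs are divided by dotted lines, and whether the marker counts come from host or tumour cells was not tested. T4 and T12 to T14 are the high bars for the less abundant vessel genes and for fibroblast markers, whereas muscle markers peak in T14 and epidermal markers in T13.

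Other genes of the pathway were read from 5 lists by the same test, and 0 genes of any list passed the adjusted threshold in any of the 3 comparisons or among runs. Values of these lists are given with T3 and T14 included. At an unadjusted p under 0.05, 0.596% of all genes passed for RNF4 with against without Dox, 1.35% for active RNF4 against the RING mutant, and 1.75% between the RING mutant and RNF4 without Dox. Of 25 tested ligands outside the 34 genes, 2 were higher with active RNF4 than with the RING mutant at an unadjusted p under 0.05, ADM and PGF, and 0 of 25 passed in the other 2 comparisons. The 3 ligands with the highest mean CPM were CCN1, a matricellular protein, at 255 CPM, VEGFA, the ligand of KDR and FLT1, at 163 CPM and ADM, adrenomedullin, the ligand of the receptor that RAMP2 partners, at 132 CPM. VEGFA stood at 165 ± 46.9 CPM (SD, n = 3) without Dox, 193 ± 56.0 in RNF4 with Dox, and 130 ± 41.9 with the RING mutant, and differed by 0.58 ± 0.32 (log2 ± SE) between the last 2. ADM stood at 122 ± 10.9, 175 ± 65.8 and 98.2 ± 4.81 CPM, a difference of 0.83 ± 0.27 between the last 2.

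Receptors and signal partners outside the 34 genes gave 2 of 24 higher with active RNF4 than with the RING mutant at an unadjusted p under 0.05, RADIL and SHC2, and RADIL was also the 1 gene that passed between the RING mutant and RNF4 without Dox, lower with the mutant. EPHA2 at 378 CPM, the VEGF co-receptor NRP1 at 170 CPM and PLCG1 at 153 CPM led that list by mean CPM. Inhibitors of vessel growth gave 1 of 14 each way in the same comparison, SPRY1 higher and TIMP3 lower with active RNF4. TIMP3, an inhibitor of matrix proteases that also blocks VEGF from KDR, had the highest mean of its list. It stood at 321 ± 77.2, 291 ± 37.6 and 506 ± 150 CPM in the 3 groups, with T14 highest at 679 CPM. It was higher in the RING mutant group by 0.66 ± 0.29 over RNF4 without Dox. In that comparison it was the 1 gene of 14 with an unadjusted p under 0.05, at 0.0451 in edgeR, and did not pass the adjusted threshold. THBS1 and SFRP1 followed it at 280 and 121 CPM. Further endothelial markers gave 1 of 31, CAVIN2, higher for RNF4 with against without Dox, and 1 of 31, BCL6B, higher with active RNF4 than with the RING mutant. Between the RING mutant and RNF4 without Dox, BCL6B and MYCT1 were lower with the mutant, 2 of 31. CAV1 at 619 CPM, ETS1 at 163 and ECE1 at 154 led that list. Mural and smooth muscle markers gave 0 of 15 for RNF4 with against without Dox, and 1 of 15, TAGLN, higher with active RNF4 than with the RING mutant. DES was higher and TAGLN lower with the RING mutant than in RNF4 without Dox, 2 of 15. ANPEP at 429 CPM, MCAM at 277 and PDGFRB at 67.1 led that list, and MCAM is also among the melanoma and melanocyte markers. For any difference among runs, the counts at an unadjusted p under 0.05 were 3 of 25 ligands, 8 of 24 partners, 5 of 14 inhibitors, 11 of 31 endothelial and 4 of 15 mural genes, against the 30.5% of all genes given above.

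The authors' deposited tables held an adjusted p for 29 of the vessel genes in each comparison, and 0 of 29 were under 0.05. Over all 16002 genes with an adjusted p, the authors' deposited tables held 3 under 0.05 for RNF4 with against without Dox, 8 for active RNF4 against the RING mutant and 19 between the RING mutant and RNF4 without Dox. In the authors' deposited table that sets the RING mutant against RNF4 without Dox, FLT4 had the smallest p of the vessel genes, 0.00403, with an adjusted p of 0.6559. MMRN1, LYVE1, FLT1 and ANGPT2 followed in that table at p of 0.0161, 0.0195, 0.0232 and 0.0277, each with an adjusted p of 0.99999. The authors' deposited table gave ANGPT2 the smallest p, 0.0312, for RNF4 with Dox against the RING mutant.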

How the data were processed

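Whole-number counts per gene were taken from the deposited tables, whose 3 copies hold the same 9 count columns. Reads of 50 bases were made from 800 ng of RNA with a strand-specific, poly(A)-selecting kit, per the labels' protocols. TopHat2 2.0.13, HTSeq 0.6.0, DESeq2 1.10.1 and GRCh38 are named in the submitters' processing notes, and no annotation release is given in the sources used here. The authors' log2 fold changes and p-values were read from their deposited tables only where named, and 27 normalised columns were not used. The column names give the group but not the single sample. Symbols were joined by Ensembl identifier, and places and exon lengths are from GENCODE 29, where 52338 of 57820 identifiers were found.

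Genes were kept by edgeR's filterByExpr (18618 genes, 30 of the vessel genes) and scaled by TMM. All 9 libraries entered a quasi-likelihood model with a mean for each group (edgeR 4.0.16, R 4.3.3). Differences among runs were tested in a model with group and run. Calls are two-sided at a Benjamini-Hochberg adjusted p under 0.05 over all genes, and SE is the absolute log2 difference over the square root of F. DESeq2 1.42.0 was an alternative. Libraries of a group differed beyond counting noise (chi-square per degree of freedom 19.2 to 504). This gives no sign of a library deposited more than once, but does not show that the libraries are separate tumour pools. The fit was tested on simulated counts. Fold changes and p are given, in each contrast and among runs, for members past the adjusted threshold, the 4 with the smallest p, and CSPG4. Values in every library are given for members with a mean of at least 1 CPM, and also for MMRN1, whose mean was 0.768 CPM. Of other pathway lists the 3 genes with the highest mean CPM are named, and those at an unadjusted p under 0.05 are named after their values were seen. The members and lists were chosen, and the runs tested, with earlier results of these data known.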

Additional observations from a re-analysis of the deposited data

How the results depend on the processing

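The alternatives were RLE scaling, dropping the filter on low counts, requiring 1 CPM in 3 libraries, only the 6 libraries compared, DESeq2, a term for runs, T1 and T2 left out, T3 and T14 left out, and each library left out in turn. For RNF4 with against without Dox, 0 genes were called; the count was 3 with no filter and 3 by DESeq2, and 0 to 1 with 1 library left out. Against the RING mutant it was 38 with no filter and 1 by DESeq2, and for the RING mutant against RNF4 without Dox 109, 4 and, without T1 and T2, 1. That last gene was FLT4, so 1 vessel gene was called there, and 0 vessel genes were called in the 3 contrasts under every other alternative run. Among runs, 0 genes became 4739 with no filter, 3703 by DESeq2, 583 without T1 and T2, 5779 without T3 and T14, and 0 to 7286 with 1 library left out. The vessel genes called became 13, 11, 2 and 12 under those 4 settings, and 0 to 17 with 1 library left out. The cause was not tested.

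The log2 difference of CSPG4 changed sign, at no point past the threshold. For RNF4 with against without Dox it was -0.001 with no filter, -0.002 with the 1 CPM filter, -0.128 without T1 and T2, and -0.276 to 0.426 with 1 library left out. Against the RING mutant it was 0.169 without T3 and T14. For the RING mutant against RNF4 without Dox it was -0.065 without T1 and T2, -0.167 without T3 and T14, and -0.068 to 0.632 with 1 library left out. The other vessel genes named by the rule, which leaves out LYVE1 and PROX1, kept their direction in the 3 contrasts under all alternatives run.

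No paired analysis was possible because the columns carry numbers other than the replicate numbers of the titles. The term for runs of columns, which are no such numbers, left 0 vessel genes called in the 3 contrasts, with 0, 2 and 6 of 30 at an unadjusted p under 0.05, where 0.967%, 2.1% and 2.16% of all genes passed. Most vessel genes have few counts, and 3 libraries a group limit what can be seen. On simulated counts, 4-fold changes were recovered more often than 2-fold ones. The simulation changed only genes above a minimum count, with the same spread for all genes and no shared deviation of libraries. It therefore does not measure recovery for these vessel genes.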
